A study of Mus musculus with 12 samples.

Results

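Neutrophils recovered with the brain myeloid cells of transplanted mice were taken as the barcodes that carried at least 20 UMIs (counted molecules) summed over S100a8, S100a9, Retnlg, Lcn2, Camp, Ngp, Cxcr2, Csf3r and G0s2, among barcodes kept for having 200 or more genes detected and no more than 10% of UMIs from mitochondria. There were 77 such barcodes among 27439 kept barcodes of the 8 treated libraries, and 30775 kept barcodes in all 12 libraries. The measured values that chose them are those of the 9 genes, so the levels of these genes are given below as a description; they stayed in the fits across all genes, and no call among them is read as a result. The barcodes just inside the threshold held 22, 39, 40, 49 and 57 UMIs of the 9 genes, and those just outside it held 13, 10, 9, 9 and 9.

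The libraries came from 4 busulfan-conditioned C57BL/6J recipients, 1 female and 1 male for each route, that had received Lin- hematopoietic stem/progenitor cells transduced with a lentiviral vector carrying GFP (LVV.GFP), either intravenously (i.v.) or intracerebroventricularly (i.c.v.). The donors of these cells were male, and all recipients, i.c.v. ones included, were also given total bone marrow without the vector by vein some days later. The study's results give the donor animals of this experiment as all male. Its methods state the sex for the transduced cells and name none for the donors of the later marrow. Cells of the perfused and enzymatically dissociated brain were sorted as CD45+ CD11b+ CX3CR1+ and then as GFP+ or GFP-, giving 1 library of each sort per mouse, so the 8 libraries hold 4 mice. The labels give an age of 22 to 28 weeks while the series' design text places the harvest 12 to 13 months after dosing, 2 statements that cannot both hold. A naive mouse of 8 to 12 weeks gave the reference libraries, of which peripheral blood is used here. Deep and shallow libraries differed: the median kept barcode held 3499 UMIs in the i.v. GFP+ library of the female and 842 to 1308 in the other 7 treated libraries, and 0 to 8 kept barcodes were shared by any 2 treated libraries, none of them a neutrophil.

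Neutrophils are short-lived granulocytes of the bone marrow and blood that are scarce in the healthy brain parenchyma. During maturation they make their granule proteins in a fixed order, first those of azurophil granules (myeloperoxidase, elastase), then those of specific granules (lactoferrin, cathelicidin), then gelatinase, and the transcripts of each set fade as the next one is made. Mature cells express chemokine and growth factor receptors such as CXCR2 and the G-CSF receptor, and can make interleukin-1β.

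The granule transcripts by which the neutrophils are ordered below come from a stretch of chromosome 9. Camp (cathelicidin, chr9:109847379-109849617, minus strand), Ngp (neutrophilic granule protein, chr9:110419747-110423012, plus strand) and Ltf (lactoferrin, chr9:111019271-111042767, plus strand; GRCm38, GENCODE vM21) were detected in 24, 28 and 23 of 77 neutrophils, Camp and Ltf together in 22 and neither of them in 52. Because these 3 genes were found largely in the same cells, the bases ahead of their starts are shown, from RefSeq (GRCm38.p6), 5′ to 3′ on the gene's strand and ending at the base before the annotated gene. The windows are chr9:109849618-109849706 (Camp, minus strand, 89 bases), chr9:110419558-110419746 (Ngp, plus strand, 189 bases) and chr9:111019042-111019270 (Ltf, plus strand, 229 bases). Capitals mark TTGCNNAA on either strand, letters of the kind bound by C/EBP factors.
Camp: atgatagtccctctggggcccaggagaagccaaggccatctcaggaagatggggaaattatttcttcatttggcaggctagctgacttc
Ngp: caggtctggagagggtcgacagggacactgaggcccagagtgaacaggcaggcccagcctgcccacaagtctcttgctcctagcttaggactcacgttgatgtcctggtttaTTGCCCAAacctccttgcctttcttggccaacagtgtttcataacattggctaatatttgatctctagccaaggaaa
Ltf: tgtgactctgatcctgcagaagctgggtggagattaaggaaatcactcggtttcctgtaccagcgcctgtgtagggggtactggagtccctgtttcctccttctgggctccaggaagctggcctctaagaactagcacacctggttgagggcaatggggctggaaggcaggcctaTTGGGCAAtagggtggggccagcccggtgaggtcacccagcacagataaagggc
The Ngp and Ltf windows each held 1 match, beginning 77 and 54 bases before the annotated gene, and the Camp window held 0. Of all 32851 RefSeq windows cut to the same length, 7.76% held a match at 189 bases, 9.02% at 229 bases and 3.68% at 89 bases. GGAAGT, an ETS-type sequence, was found in none of the 3 windows on either strand, and in 13.7%, 17.5% and 6.24% of all windows of the Ngp, Ltf and Camp lengths. A match is only a string of letters, and no binding was measured.

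The first question was in which sort and after which route neutrophils were recovered. In the i.v. mice they lay mainly in the GFP+ sort: the female had 14 of 3344 kept barcodes in GFP+ (0.419%, exact binomial 95% interval 0.229 to 0.701%) and 2 of 2675 in GFP- (0.0748%, 0.00906 to 0.270%), and the male had 25 of 2266 in GFP+ (1.10%, 0.715 to 1.62%) and 4 of 4555 in GFP- (0.0878%, 0.0239 to 0.225%). In the i.c.v. mice they lay in the GFP- sort alone. The female had 21 of 4355 (0.482%, 0.299 to 0.736%) and the male 11 of 4087 (0.269%, 0.134 to 0.481%), while their GFP+ libraries held 0 of 2621 and 0 of 3536, which allows shares of up to 0.114% and 0.0848% when 3 counts of the total are taken as the limit, and up to 0.141% and 0.104% at the upper end of the exact interval. These intervals and limits cover counting error only.

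**Figure D1:**
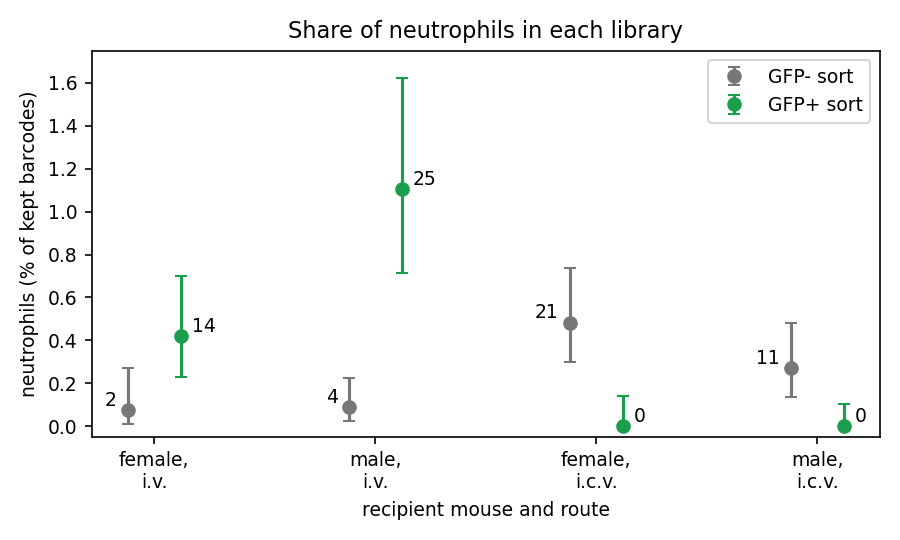
Neutrophils as a percent of kept barcodes (y axis) in the GFP- and GFP+ library of each recipient (x axis), with exact binomial 95% intervals and the number of neutrophils beside each point. GFP+ lies above GFP- in both i.v. mice and below it in both i.c.v. mice.

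Over the 4 libraries of each sort the share was 0.380% ± 0.521 (SD, n = 4) in GFP+ and 0.228% ± 0.191 (SD, n = 4) in GFP-, a difference of 0.152 percentage points that was smaller than the spread between libraries (exact permutation test, two-sided p = 0.743, smallest possible 0.0286). Within mice, GFP+ minus GFP- was 0.344 and 1.02 points in the i.v. female and male and -0.482 and -0.269 points in the i.c.v. female and male. The sort difference thus had opposite signs after the 2 routes, and the routes' mean differences lay 1.06 points apart (exact permutation of the mice, two-sided p = 0.333, the smallest that 2 against 2 mice allow). Without the i.v. GFP+ library of the male the pooled sort difference turned to -0.0889 points. Averaged over the sorts of each mouse, the share was 0.421% ± 0.247 (SD, n = 2) after i.v. and 0.188% ± 0.0753 (SD, n = 2) after i.c.v. dosing, a difference of 0.233 points (exact permutation test, two-sided p = 0.333) that fell to 0.0589 points without the i.v. male. Because each sort was loaded separately, these are shares within a sort and not of the brain.

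Neutrophil identity was checked with genes that the rule did not use; every gene of the chosen cells may follow from the choice, so no test was made. All 22 other neutrophil genes of the list were detected and all 22 were higher, as a share of UMIs, in the neutrophils than in the remaining barcodes. Hdc, which makes histamine, was found in 75 of 77 neutrophils at 1230 CPM of summed UMIs against 0.451 CPM in the other barcodes. Slpi, a protease inhibitor, was found in 71 at 2222 CPM against 0.657 CPM. Ly6g, the antigen by which mouse neutrophils are gated, was found in 28 of 77 neutrophils and had 0 UMIs in the other barcodes of the treated libraries. Il1r2, the decoy receptor for interleukin-1, was found in 68 and Trem1, which amplifies inflammatory signaling, in 65.

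Outside all lists, the genes that stood highest over the other barcodes included Mrgpra2b, Il1f9, Acod1, Ceacam10, Sgms2, Rflnb, Pi16, Nfe2, Mapk13, AC110211.1, Cd24a, Pygl, Tarm1 and F5. Acod1, which makes itaconate, had a UMI in 51 of 77 neutrophils at 697 CPM against 2.68 CPM elsewhere. Pygl, the glycogen phosphorylase of liver and leukocytes, was found in 62 at 502 CPM against 5.32 CPM. Il1f9, an interleukin-1 family cytokine, was found in 34 neutrophils and was at 0 in the other barcodes.

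The neutrophils differed among themselves in granule transcripts, receptors and cytokines. The sum of Camp, Ngp and Ltf, per 10000 UMIs of a cell, fell into 3 ranges with gaps between them, and bounds of 50 and 700, set after the values were seen, gave 13 high, 10 intermediate and 54 low neutrophils. The high ones ran from 946 to 1771, the intermediate ones from 64.8 to 519, and the low ones from 0 to 24.6. The high neutrophils were also the ones richest in RNA, with a median of 12669 UMIs against 5078 in the intermediate and 2876 in the low ones. Camp and Ngp are part of the rule, and the bins are ranges of a score rather than cell types.

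**Figure D2:**
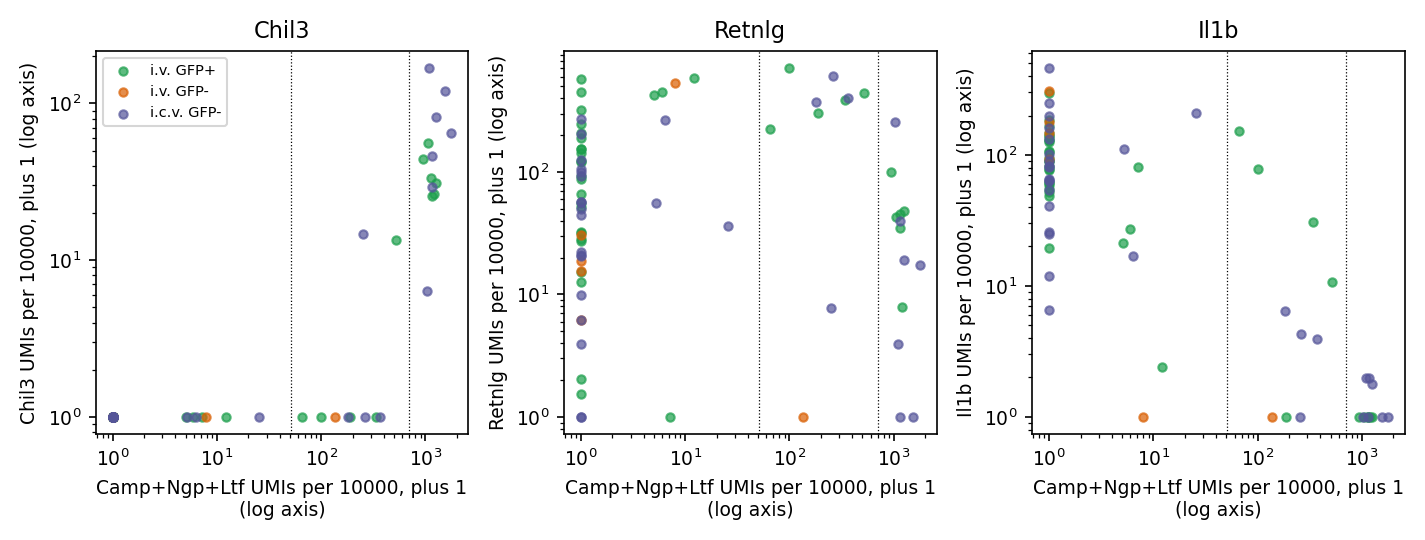
Each point is 1 of 77 neutrophils, placed by its Camp, Ngp and Ltf UMIs per 10000 plus 1 (x axis, log scale) and by its Chil3, Retnlg or Il1b UMIs per 10000 plus 1 (y axis, log scale), colored by group, with dotted lines at the bounds of 50 and 700. Chil3 was found in all 13 neutrophils of the high range, Retnlg was highest in the middle of the axis, and Il1b fell toward the right.

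Specific granule genes were high together. All 12 genes of that list were detected and all 12 had a higher mean per 10000 UMIs in the high than in the low neutrophils, where 37.6% of all 9202 detected genes did; Ltf, 1 of the 12, helped to set the ranges. Ltf averaged 133 UMIs per 10000 in the high, 39.8 in the intermediate and 0.114 in the low neutrophils. Chil3, a chitinase-like protein of immature granulocytes, was found in 13 of 13 high, 2 of 10 intermediate and 0 of 54 low neutrophils, and averaged 55.4 and 2.61 UMIs per 10000 in the first 2. Cd177, a surface glycoprotein stored with these granules, averaged 10.9, 10.0 and 0.398. Fcnb and Orm1 were confined to 4 and 8 of the 13 high neutrophils among the 77. Mmp8, neutrophil collagenase, stood highest in the intermediate neutrophils, at 18.1 against 9.31 in the high and 4.6 in the low ones. Pglyrp1 and Hp, the latter encoding haptoglobin, stayed broadly present, in 48 and 45 of 54 low neutrophils.

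Azurophil granule genes were nearly absent. Mpo and Elane, which encode myeloperoxidase and neutrophil elastase, had 0 UMIs in all 77 neutrophils, Prtn3 had 2, and no neutrophil carried 3 of the 8 genes of the list. Serpinb1a, an inhibitor of neutrophil elastase, was the exception, with a UMI in 13 of 13 high, 3 of 10 intermediate and 0 of 54 low neutrophils. Cebpe, the factor that drives the specific granule program, was found in 12 of 13 high, 1 of 10 intermediate and 2 of 54 low neutrophils. Cebpb went the other way, with a mean of 4.90 UMIs per 10000 in the high, 30.3 in the intermediate and 82.5 in the low neutrophils, and Gfi1 was at 0 throughout.

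Division genes were found together in a single cell. Top2a, Birc5, Pclaf, Cdk1, Ube2c, Tyms and Rrm2 each had UMIs in 1 of 77 neutrophils, in the high range, in the i.c.v. GFP- library of the female; that cell held 20644 UMIs, the most of any neutrophil. Across the list, 8 of 77 neutrophils carried at least 3 of 12 genes, which fell to 1.30% of neutrophils when every cell was thinned to 500 UMIs. Hmgb2 and H2afz, which are not limited to dividing cells, were the widespread members, in 70 and 49 neutrophils.

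Csf3r, Cxcr2 and most cytokine and chemokine genes had higher means in the low than in the high range. Csf3r, the G-CSF receptor, averaged 0.663 UMIs per 10000 in the high, 1.35 in the intermediate and 16 in the low neutrophils, and Cxcr2, the receptor for CXCL1 and CXCL2, averaged 1.5, 3.1 and 6.48. These receptors belong to the rule, so their values are a description only. Of the 8 detected genes of the secretory vesicle and membrane list, 3 had a higher and 5 a lower mean in the high than in the low range. The median summed level of that list was 22.8, 41.3 and 34.4. Il1b was found in 3 of 13 high, 7 of 10 intermediate and 53 of 54 low neutrophils, with means of 0.211, 27.8 and 104. Of the 13 cytokine and chemokine genes of the list 12 had a lower mean in the high than in the low neutrophils, as had 60.4% of all 9202 detected genes. Ccl6 averaged 0.0381, 6.81 and 36.7, and Cxcl2 averaged 1.88, 20.2 and 65.1. Between low neutrophils the SD was 29.9 for Ccl6 and 130 for Cxcl2, above the mean of the latter. Ptgs2, the inducible cyclooxygenase, had a UMI in 23 low neutrophils and in 0 of the others. Retnlg, a resistin-like protein of the rule, peaked between, at 46.5, 344 and 125. Microglia genes moved with these ranges: all 15 of the list had a lower mean in the high than in the low neutrophils, and their summed level had a median of 12.6 UMIs per 10000 in the high, 21.2 in the intermediate and 42.6 in the low ones. In the 66 neutrophils with fewer than 10 UMIs of 7 microglia genes, where these medians were 9.71, 19.3 and 36.8, Il1b averaged 0.146, 30.9 and 113 and Cebpb 5.10, 32.1 and 89.2, and 12 of the 13 cytokine and chemokine genes again had the lower mean in the high range. The part of microglia RNA in the other values was not tested.

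Interferon-response genes were mostly in the low range, where 11 of the 12 detected genes had a higher mean than in the high range, beside the 60.4% of all detected genes and all 15 microglia genes that did. In the 66 neutrophils with few microglia UMIs 10 of the 12 did, beside 53.5% of all genes. Isg15 was found in 21 of 54 low, 2 of 10 intermediate and 0 of 13 high neutrophils, and Ifitm1 in 30, 3 and 1. Slfn4 was the exception, in 12 of 13 high, 7 of 10 intermediate and 15 of 54 low neutrophils. The 6 NADPH oxidase genes were all detected; 4 had a higher and 2 a lower mean in the high than in the low range, where 37.6% of all detected genes were higher. Their summed level had a median of 70.8 UMIs per 10000 in the high, 52.1 in the intermediate and 42.8 in the low neutrophils. Cybb, the membrane subunit, which is also on the specific granule list, averaged 18.9, 10.1 and 1.44. All 9 motility genes of the list were detected, with Actb and Tmsb4x in all 77 neutrophils, while some neutrophils held only 5 of the 9. As depth differed between the ranges, the presence of a rare transcript in a low neutrophil is less likely to be seen than in a high one.

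**Figure D3:**
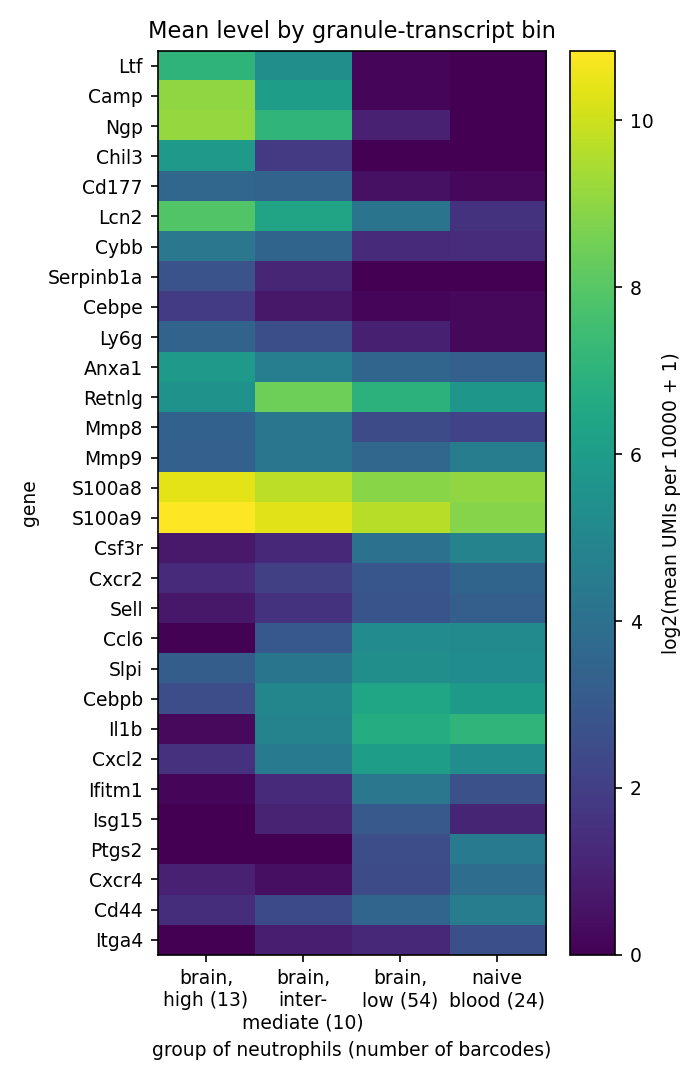
Mean UMIs per 10000 on a log2(mean + 1) color scale for 30 genes (rows) in the high, intermediate and low neutrophils of the treated brains and in naive blood neutrophils (columns, with the number of barcodes). Specific granule genes are bright in the first 2 columns, and Il1b, Csf3r and Cxcr2 in the last 2.

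High neutrophils were present in each of the 4 libraries with many neutrophils. They were 3 of 14 and 3 of 25 in the i.v. GFP+ libraries of the female and the male, and 5 of 21 and 2 of 11 in the i.c.v. GFP- libraries. Pooled over mice, they were 6 of 39 in i.v. GFP+, 7 of 32 in i.c.v. GFP- and 0 of 6 in i.v. GFP-. The per-library shares overlapped between i.v. GFP+ and i.c.v. GFP-. Intermediate neutrophils were 5 of 39 in i.v. GFP+, 4 of 32 in i.c.v. GFP-, all in the female, and 1 of 6 in i.v. GFP-.

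Among blood neutrophils of the naive mouse, found by the same rule, none was seen in the high or intermediate range. A count of 0 of 25 allows a share of up to 12% by the limit of 3 counts, or 13.7% by the exact interval. The rule took 25 of 341 kept blood barcodes, and 24 are described here, as the other one held 46376 UMIs with under 3% from the rule genes. Camp, Ngp, Ltf and Chil3 had 0 UMIs in all 24. Il1b was found in 24 of 24 with a mean of 135 UMIs per 10000, against 104 in the low brain neutrophils, and Csf3r averaged 27.9 against 16. Cxcr4, which retains neutrophils in and returns them to the marrow, averaged 13.7 in blood and 4.70 in the low brain neutrophils, and Itga4 5.22 and 1.36. Lcn2, the siderophore-binding lipocalin, went the other way, at 2.02 in blood and 17.2 in the low brain neutrophils, as did Acod1 at 4.63 and 14.1 and Ifitm1 at 5.53 and 18.6. Higher in the low brain neutrophils were also 60.6% of 8106 genes and all 15 microglia genes, with a median summed level of 42.6 UMIs per 10000 against 13.2 in blood. The bound of 3% was not applied to the brain neutrophils; with it, 51 low ones were left, in which Lcn2 averaged 18.2, Acod1 13.5 and Ifitm1 19.7. In the 45 low neutrophils with fewer than 10 UMIs of 7 microglia genes they averaged 16.9, 14.4 and 20.9. The blood came from 1 younger animal, without conditioning, transplant or brain dissociation, and the study's text lists no sort markers for it. Tissue, age, treatment and sort gate therefore cannot be told apart, and there is no test. The naive microglia library held 1 barcode that met the rule, with 9166 UMIs of the 9 genes, in the high range.

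Sex-linked transcripts were read in the neutrophils because the donors of the transduced cells were male. For the marrow given later the donors' sex rests on the statement in the study's results alone. Whether Xist came from cells of the recipient or of that marrow was not tested. In the female i.v. mouse, 4 of 14 GFP+ neutrophils had a UMI of a Y-linked gene (Ddx3y, Eif2s3y, Kdm5d or Uty) and 0 of 14 had Xist, the transcript of the inactive X chromosome of females. In the female i.c.v. mouse the reverse was seen: 10 of 21 GFP- neutrophils had Xist (47.6%, exact binomial 95% interval 25.7 to 70.2%) and 0 of 21 had a Y-linked UMI. A count of 0 allows up to 21.4% of neutrophils with a UMI in the first case and up to 14.3% in the second by the limit of 3 counts, or 23.2% and 16.1% by the exact interval, and sets no limit on neutrophils that express the gene below detection. Of the 21 neutrophils of the i.c.v. female, 5 held at least 10 UMIs of 7 microglia genes, and 4 of these 5 held 30 of the 39 Xist UMIs; without them Xist was found in 6 of 16 (37.5%). The part of microglia RNA in this result was not tested. These 2 libraries had similar depth per neutrophil, with medians of 4633 and 4875 UMIs. The other barcodes of the same libraries gave the background: 50.6% had a Y-linked UMI and 3.18% Xist in i.v. GFP+, and 1.34% and 65.8% in i.c.v. GFP-.

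Xist was spread over the ranges in the i.c.v. female, in 3 of 5 high, 4 of 4 intermediate and 3 of 12 low neutrophils. In the male recipients, where the recipient has the sex of the donors of the transduced cells, a Y-linked UMI was found in 16 of 25 i.v. GFP+ and in 4 of 11 i.c.v. GFP- neutrophils, and Xist in 0 of either. Neither was found in the 2 neutrophils of the i.v. GFP- library of the female or in the 4 of that of the male. Thinned to 500 UMIs, Xist remained in 3 of 21 neutrophils of the i.c.v. female and a Y-linked UMI in 0 of 14 of the i.v. female. The vector transcript EGFP had a UMI in 2 of 39 i.v. GFP+ neutrophils, both in the male and 1 of them the barcode with 231 microglia UMIs described below, and in 0 of 21 and 0 of 11 i.c.v. GFP- ones. Without members holding 10 microglia UMIs the share in i.v. GFP+ was 2.63%. EGFP was found in 10.8% and 6.96% of the other barcodes of the i.v. GFP+ libraries of the female and male.

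**Figure D4:**
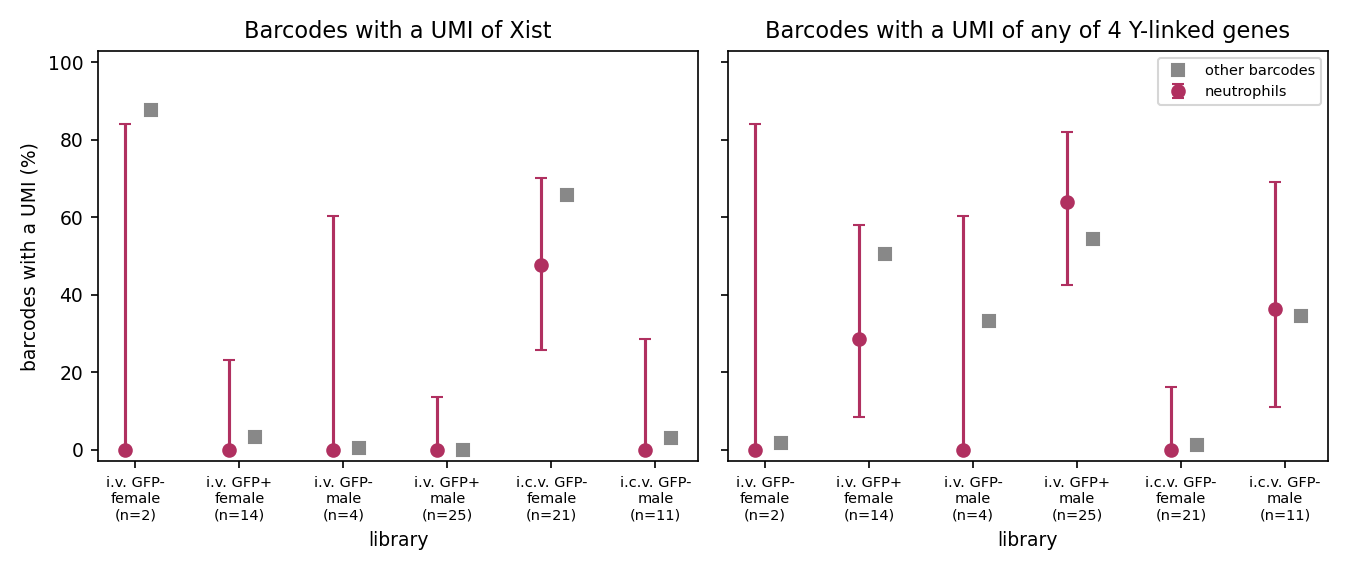
Percent of barcodes with a UMI (y axis) of Xist (left) and of any of 4 Y-linked genes (right) in each library that held neutrophils (x axis), for neutrophils with exact binomial 95% intervals and for the other kept barcodes. In the female recipients the neutrophils of i.v. GFP+ showed Y-linked UMIs and no Xist, and those of i.c.v. GFP- showed Xist and no Y-linked UMI.

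Transcripts of other cells were present in the neutrophils. All 15 microglia genes were detected, all were lower as a share of UMIs than in the other barcodes, and none was at 0. Their summed level was 11.6 to 60.7 UMIs per 10000 in the i.v. GFP+ libraries, 50.7 to 172 in i.v. GFP- and 40.2 to 107 in i.c.v. GFP-, against 527 in the other barcodes. The 60.7 is that of the male, where the barcodes described at the end of this paragraph held 384 and 276 of these UMIs. The median i.v. GFP+ neutrophil stood at 16.1. Cx3cr1, the product of which was part of the sort gate, had a UMI in 22 of 77 neutrophils at 108 CPM against 1504 CPM elsewhere. Erythroid and basophil or mast cell genes were at 0, as were Ccr2 and Vcan of the monocyte list, while Ly6c2 of that list was found in 33 neutrophils, 13 of them the high ones. One i.v. GFP+ neutrophil of the male held 57 UMIs of the 9 rule genes beside 231 UMIs of 7 microglia genes, and another held 192 of 18685 UMIs from the rule genes. The part of mixed or free RNA in the results was not tested.

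Gene expression was then compared between libraries, with UMIs summed over the neutrophils of each. Only 4 libraries held at least 5 neutrophils, the 2 of i.v. GFP+ and the 2 of i.c.v. GFP-, so sort and route cannot be told apart in them. edgeR's quasi-likelihood test called 0 of 1255 genes (0%) between these groups at an adjusted p under 0.05 (Benjamini-Hochberg), with 29 at an unadjusted p under 0.05, 14 higher and 15 lower in i.v. GFP+. DESeq2 called 0, with 23 at an unadjusted p under 0.05. With recipient sex as a covariate, as each group holds 1 female and 1 male, edgeR called 7 genes, 3 higher and 4 lower in i.v. GFP+. Leaving out 1 library in turn gave 6 to 15 calls, namely 15 without i.v. GFP+ of the female, 12 without that of the male, 7 without i.c.v. GFP- of the female and 6 without that of the male. Each of these fits has an arm of 1 library, which is assumed to vary like the pair in the other arm.

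Several genes among those of lowest p are given here, named after their values were seen. Il1f9 stood at 419 and 292 CPM (normalized by edgeR) in i.v. GFP+ of the female and male, and at 113 and 66.5 CPM in i.c.v. GFP-, a log2 fold change of 1.82 (SE 0.59, edgeR adjusted p = 0.999). Olfm4, a specific granule protein of a subset of neutrophils, stood at 536 and 785 CPM against 235 and 33.2 CPM. These genes were picked by low p, so their values are a description only. Wfdc17, a protease inhibitor-like protein, was lower in i.v. GFP+, at 569 and 493 CPM against 1374 and 1629 CPM, and the chemokine gene Ccl4 stood at 385 and 376 CPM against 2042 and 565 CPM. Cd74, the invariant chain of MHC class II, overlapped between groups, with 4728.5 CPM in the i.v. GFP+ library of the male against 16.7 CPM in that of the female. In the male library 557 of the 566 Cd74 UMIs of its 25 neutrophils lay in 1 barcode, of which 1.03% of UMIs came from the rule genes. That barcode also held 32 of the library's 33 UMIs of dendritic cell genes and 276 UMIs of 4 microglia genes. Without it the summed Cd74 level of the library was 80.0 CPM in place of 4315 CPM, before edgeR's normalization, so 1 barcode sets the value. None of these genes passed the test in the fit of all 4 libraries without a covariate.

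**Figure D5:**
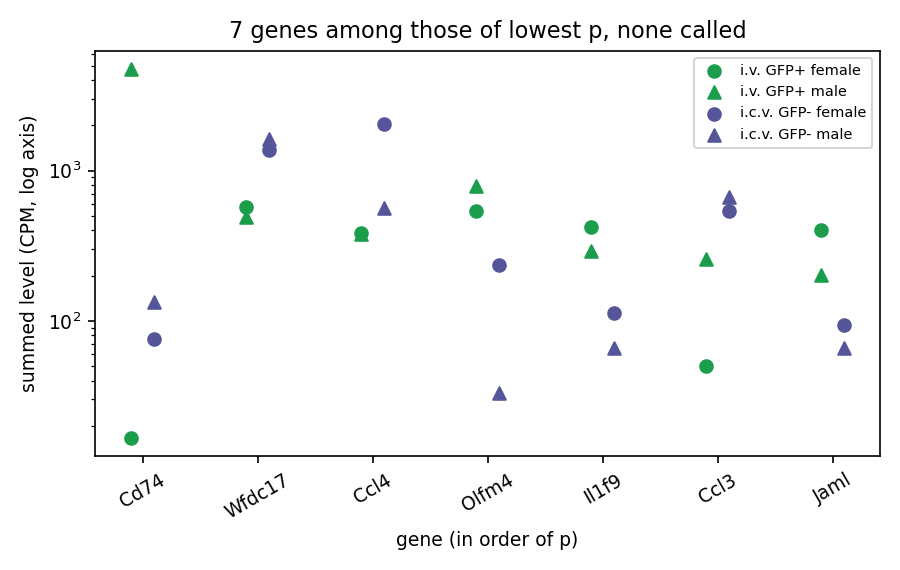
Summed level in CPM (y axis, log scale) of 7 genes among those of lowest unadjusted p (x axis) in the 4 libraries with at least 5 neutrophils; color gives the group and shape the sex of the recipient. None was called in the fit of all 4 libraries without a covariate. In Cd74 the i.v. GFP+ libraries lie on either side of the i.c.v. GFP- ones, with 557 of the 566 UMIs of the male i.v. library in 1 barcode.

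By list, the 10 specific granule genes tested had 0 calls and a median log2 fold change of -0.44, the 9 cytokine and chemokine genes 0 calls and 0.24, and the 9 microglia genes 0 calls and -0.82, beside a median of -0.02 over all 1255 genes. Among low neutrophils alone edgeR called 0 of 623 genes, with 11 at an unadjusted p under 0.05.

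The planned terms for sort and for route could be fitted only with the 6 libraries that held any neutrophil. There, the sort term compares GFP+ with GFP- within i.v. mice and the route term i.v. with i.c.v. within GFP-, and both lean on the 6 neutrophils of i.v. GFP- (12821 UMIs). edgeR called 4 of 851 genes (0.47%) for sort, all higher in GFP+, with 86 at an unadjusted p under 0.05. Of these, Ngp, Camp and Lcn2 belong to the rule and are a description only; outside the rule 1 of 842 genes (0.119%) was called, Ltf. Ltf stood at 8089 and 6412 CPM in i.v. GFP+ of the female and male, 0 and 541 CPM in i.v. GFP-, and 10157 and 11217 CPM in i.c.v. GFP-. The log2 fold change for sort was 4.61 (SE 0.78, edgeR adjusted p = 0.0138). All 4 Ltf UMIs of i.v. GFP- lay in 1 barcode of the male, with 22 UMIs of the rule genes and 8.10% mitochondrial UMIs. At a threshold of 40 rule UMIs that barcode was lost, and Ltf was found in 0 of the 3 neutrophils left in that library. With the mouse as a replicate block edgeR called 8 genes. Without 1 library it called 3 to 18, among them 8 without i.v. GFP- of the female, 14 and 16 without i.v. GFP+ of the female and male and 18 without i.c.v. GFP- of the male, each time with 1 library left in that group.

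For route, edgeR called 7 of 851 genes (0.823%), all lower in i.v. GFP- than in i.c.v. GFP-. This direction holds for the 6 neutrophils of i.v. GFP- and not for the i.v. mice as a whole. Ngp, Camp and Lcn2 again belong to the rule and are a description only; outside it 4 of 842 genes (0.475%) were called, Ltf, Chil3, Wfdc17 and Anxa1. Ltf had a log2 fold change of -5.17 (SE 0.78, edgeR adjusted p = 0.0044), with all Ltf UMIs of i.v. GFP- in the 1 barcode named above. Chil3 had 0 UMIs in i.v. GFP-, and its summed level was at least 18.7-fold higher in i.c.v. GFP- against a floor of 3 UMIs over the group. That bound leans on the female library, where 1 barcode held 344 of the 747 Chil3 UMIs of i.c.v. GFP-. In the male library Chil3 was found in 2 of 11 neutrophils. Wfdc17 stood at 169 and 0 CPM in i.v. GFP-, 700 and 607 CPM in i.v. GFP+ and 1726 and 2013 CPM in i.c.v. GFP- (edgeR adjusted p = 0.0333). Both i.v. GFP- values lay under 234 CPM, the level of 3 UMIs over that group. The fitted log2 fold change of -4.57 (SE 0.91) is therefore not an exact value. Anxa1, annexin A1, stood at 846 and 947 CPM in i.v. GFP- and at 5285 and 4355 CPM in i.c.v. GFP- (log2 fold change -2.42, SE 0.51, edgeR adjusted p = 0.0473). Summed over each group, before edgeR's normalization, Anxa1 stood at 3038 CPM in i.v. GFP+, 936 CPM in i.v. GFP- and 3246 CPM in i.c.v. GFP-. In the same order Chil3 stood at 1241, 0 and 4384 CPM. None of the 6 i.v. GFP- neutrophils was in the high range, where Ltf and Chil3 were highest, and 1 was in the intermediate range. In these sums, fewer cells of the high range and less RNA per cell cannot be told apart. Without 1 library the count was 4 to 27: 4 without i.v. GFP- of the male, 23 and 27 without i.v. GFP+ of the female and male, and 15 without i.c.v. GFP- of the male.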

How the data were processed

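The deposited matrices hold raw UMI counts per gene and barcode, made by the authors with Cell Ranger (header version 3.1.0, build mm10). Each library is 1 sort of 1 mouse, and replicates of a group are mice. Barcodes were kept from 200 genes up if mitochondria gave no more than 10% of UMIs; doublets were not called, and neutrophils took 20 UMIs of 9 genes. The members, gene lists and stage bounds were chosen with earlier results of these data known. Named genes were those of the lists, the 15 with the highest ratio of CPM (plus 1) in neutrophils to other barcodes among genes found in at least 25% of them, and genes called in a comparison. Several genes of lowest p in the contrast of the 4 libraries, Cd74 among them, were added after their values were seen.

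Shares of kept barcodes were compared by exact permutation over libraries or mice, with Clopper-Pearson intervals at 95%. UMIs summed per library were tested with edgeR 4.0.16 (TMM, quasi-likelihood; R 4.3.3), with DESeq2 1.42.0 as an alternative, and the edgeR step was tested on simulated data. The planned fit, in libraries with at least 5 neutrophils, had sort and route coinciding; a contrast of the 4 libraries and the fit in 6 libraries with any neutrophil were used instead, a choice made after seeing the data. The mouse pairs the GFP+ and GFP- libraries, as both come from 1 animal. Python 3.11.15 and scipy 1.17.1 did the rest. Some genes that the naming rule takes are not reported here.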

Additional observations from a re-analysis of the deposited data

Results flagged for a closer look

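The share of neutrophils differed between sorts in opposite directions after the 2 routes: GFP+ exceeded GFP- in both i.v. mice and fell below it in both i.c.v. mice, and the mean differences lay 1.06 percentage points apart. With 2 mice per route the smallest exact permutation p is 0.333, the value obtained, so the difference could not reach the threshold.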

How the results depend on the processing

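The number of neutrophils was 66 to 79 under other filters and thresholds and 52 to 77 with 1 library left out. The sort difference in shares was -0.0889 to 0.279 points with 1 library left out, and -0.376 points in the i.c.v. mice alone against 0.680 in the i.v. mice alone; paired within mice (replicate block) it was 0.152 points with an exact permutation p of 0.75, and the block changed no call on shares. The pairing follows the animal.

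The contrast of i.v. GFP+ with i.c.v. GFP- gave 0 calls, 1 after thinning every neutrophil to 500 UMIs, 8 with no filter on low counts, 7 with recipient sex as a covariate and 6 to 15 with 1 library left out. For sort, 4 calls became 18 with no filter, 8 with the replicate block and 3 to 18 with 1 library left out. For route, 7 calls became 12 with no filter, 12 by DESeq2 and 4 to 27 with 1 library left out. The causes were not tested.

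Thinned to 500 UMIs, the share of neutrophils with Il1b went from 81.8 to 68.8%, with 2 azurophil genes from 3.90 to 0%, with 3 proliferation genes from 10.4 to 1.30%, with EGFP in i.v. GFP+ from 5.13 to 0%, with Xist in the i.c.v. GFP- female from 47.6 to 14.3%, and with a Y-linked transcript in i.v. GFP+ from 51.3 to 10.3%, as fewer UMIs were read. Without the i.v. GFP+ library of the male the EGFP share was 0% and the Y-linked share 28.6%, and without that of the female they were 8% and 64%. The contrast of i.v. GFP+ with i.c.v. GFP-, the split by route, recipient sex as a covariate and the range means without neutrophils of few rule or many microglia UMIs were added after seeing the data. Depth limits all statements on rare transcripts, and 2 mice per route limit all tests.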
